A study of Rattus norvegicus with 6 samples.

Results

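Transforming growth factor beta (TGF-beta) signalling was followed through 9 genes in the lesion centre of the contused rat spinal cord. They are the ligands Tgfb1, Tgfb2 and Tgfb3, the receptors Tgfbr1 and Tgfbr2, the latency proteins Ltbp1 and Ltbp2, and the target genes Ccn2 and Tgfbi. The genes were taken by name from the 33455 genes of the deposited count table, and all 9 were present once and passed the low-count filter that left 17066 genes for testing. All rats were wild type and had a contusion of the cord at the T9 segment. The Piezo Gel+US rats (n = 3) received a gel named as piezoelectric, a material that turns mechanical strain into charge, and the Gel+US rats (n = 3) received a gel without that name. Both groups were given ultrasound over the implant at 100 Hz and 1 W/cm2 for 10 min a day over 4 weeks. RNA came from about 5 mm3 of tissue at the injury centre, so injury, gel and ultrasound were common to both groups, and uninjured or unstimulated cord was not analysed here. The labels call the samples biological replicates without saying that each came from its own animal, so the tests measure the spread between these samples.

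TGF-beta ligands are secreted in a latent form, held by their own propeptide and tied to the extracellular matrix by latent TGF-beta binding proteins. Once released, by integrins, proteases or thrombospondin, a ligand binds the type II receptor, which recruits and phosphorylates the type I receptor, and the type I receptor then phosphorylates SMAD2 and SMAD3. In the injured cord the ligands come from macrophages, microglia, astrocytes and other cells, and the pathway is known for its part in glial and fibrotic scarring and in the restraint of inflammation. Ccn2, also called connective tissue growth factor, and Tgfbi, a secreted adhesion protein, are widely used readouts of the pathway, and Ccn2 is also a target of the mechanically controlled YAP and TEAD factors.

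The promoters of Ccn2 and Ltbp2 are shown because they hold the most matches to the motifs searched. Both genes were also highest in Gel+US replicate 2, as were 5 of the 9 genes in all, and Ltbp2 had the widest spread among libraries. Each sequence is the 250 bases before the gene start in RefSeq, build GRCr8, read 5′ to 3′ on the gene's strand, at chr1:22624615-22624864 on the minus strand for Ccn2 and chr6:110257299-110257548 on the minus strand for Ltbp2. These are Norway rat sequences, whereas the sequence names in the deposited table look like those of the black rat reference, so the counts may rest on the annotation of another species. Capitals mark CAGAC, the core bound by SMAD3 and SMAD4, and GGAATG, the core bound by TEAD factors, on either strand.
Ccn2: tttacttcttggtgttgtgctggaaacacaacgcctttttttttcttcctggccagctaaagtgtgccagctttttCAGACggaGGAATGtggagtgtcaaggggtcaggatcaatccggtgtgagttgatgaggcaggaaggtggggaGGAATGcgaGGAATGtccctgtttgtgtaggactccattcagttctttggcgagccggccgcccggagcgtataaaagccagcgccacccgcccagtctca
Ltbp2: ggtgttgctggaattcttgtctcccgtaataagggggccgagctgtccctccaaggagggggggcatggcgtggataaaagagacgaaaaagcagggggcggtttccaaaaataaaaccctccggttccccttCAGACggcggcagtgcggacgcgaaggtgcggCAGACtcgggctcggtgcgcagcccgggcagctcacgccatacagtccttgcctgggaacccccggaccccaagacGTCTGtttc
Ccn2 held 1 CAGAC, 174 bases before the start, and 3 GGAATG at 166, 101 and 92 bases before it. Of 33469 windows of the same length 12.1% held a GGAATG and 0.0807% held 3 or more. Ltbp2 held 3 CAGAC, at 117, 85 and 9 bases before the start and the last of them on the opposite strand, a number reached by 2.54% of windows. Ltbp1 held 1 CAGAC and the other 6 genes held none, where 42.9% of all windows held at least 1. The AP-1 motif TGANTCA was in 0 of the 9 windows and in 6.34% of all windows. Because Ccn2 and Ltbp2 were picked among the 9 genes for their matches, these shares do not measure how unusual the matches are. The motifs do not overlap one another in either promoter, and a match describes letters, not binding.

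Library totals were 18672101 to 21436820 counts in Piezo Gel+US and 17212653 to 20198203 counts in Gel+US. Levels are given as CPM, counts scaled to a common total by edgeR's TMM-adjusted library sizes. Markers of neurons, oligodendrocytes and astrocytes were present in every library. Cell type markers differed widely between libraries of the same group. Summed levels of 10 of 10 fibroblast markers were 1217, 6359 and 1483 CPM in Piezo Gel+US replicates 1 to 3 and 980, 7203 and 749 CPM in Gel+US replicates 1 to 3, with no marker at 0. These markers include Col1a1, Col1a2, Col3a1, Postn, Dcn and Lum, which are also among the pathway genes listed below as targets or binders. Schwann cell markers summed to 69817 CPM in Piezo Gel+US replicate 2 and to between 4321 and 12657 CPM in the other 5 libraries. Neuronal markers summed to 16697 CPM in Gel+US replicate 3, against 1759 to 8387 CPM in the others. Cartilage and bone markers, of which Col10a1 and Ibsp were at 0 in some libraries, summed to 621 CPM in Gel+US replicate 2 and to 67.5 to 172 CPM elsewhere. The tissue that gave these markers was not tested. In whole tissue fewer cells of a type and less RNA per cell cannot be told apart. Results that turn on the libraries numbered 2 are therefore given with and without them.

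By the edgeR quasi-likelihood test with group as the only term, adjusted over all 17066 genes, 0 of the 9 genes were called at an adjusted p below 0.05, and the adjusted p was 0.994 for each. DESeq2 also called 0 of 9. The share of all genes called was 0%. At an unadjusted p below 0.05 there was 1 of 9 genes by either tool, Tgfb2. By edgeR 2.1% of all tested genes reached that level in either direction and 0.721% as lower genes. By DESeq2 652 of 23195 genes reached it in either direction. The fitted log2 fold change was below 0 for 6 genes and above 0 for 3, with a median of -0.22 against -0.021 for all genes tested. Of the 9 genes 5 were highest in Gel+US replicate 2, 3 were highest in Piezo Gel+US replicate 2, and 4 had both of those libraries as their highest. The number below 0 was 3 when Gel+US replicate 2 was left out, 7 when it was Piezo Gel+US replicate 2, 7 when it was Gel+US replicate 3 and 2 without both libraries numbered 2.

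**Figure D1:**
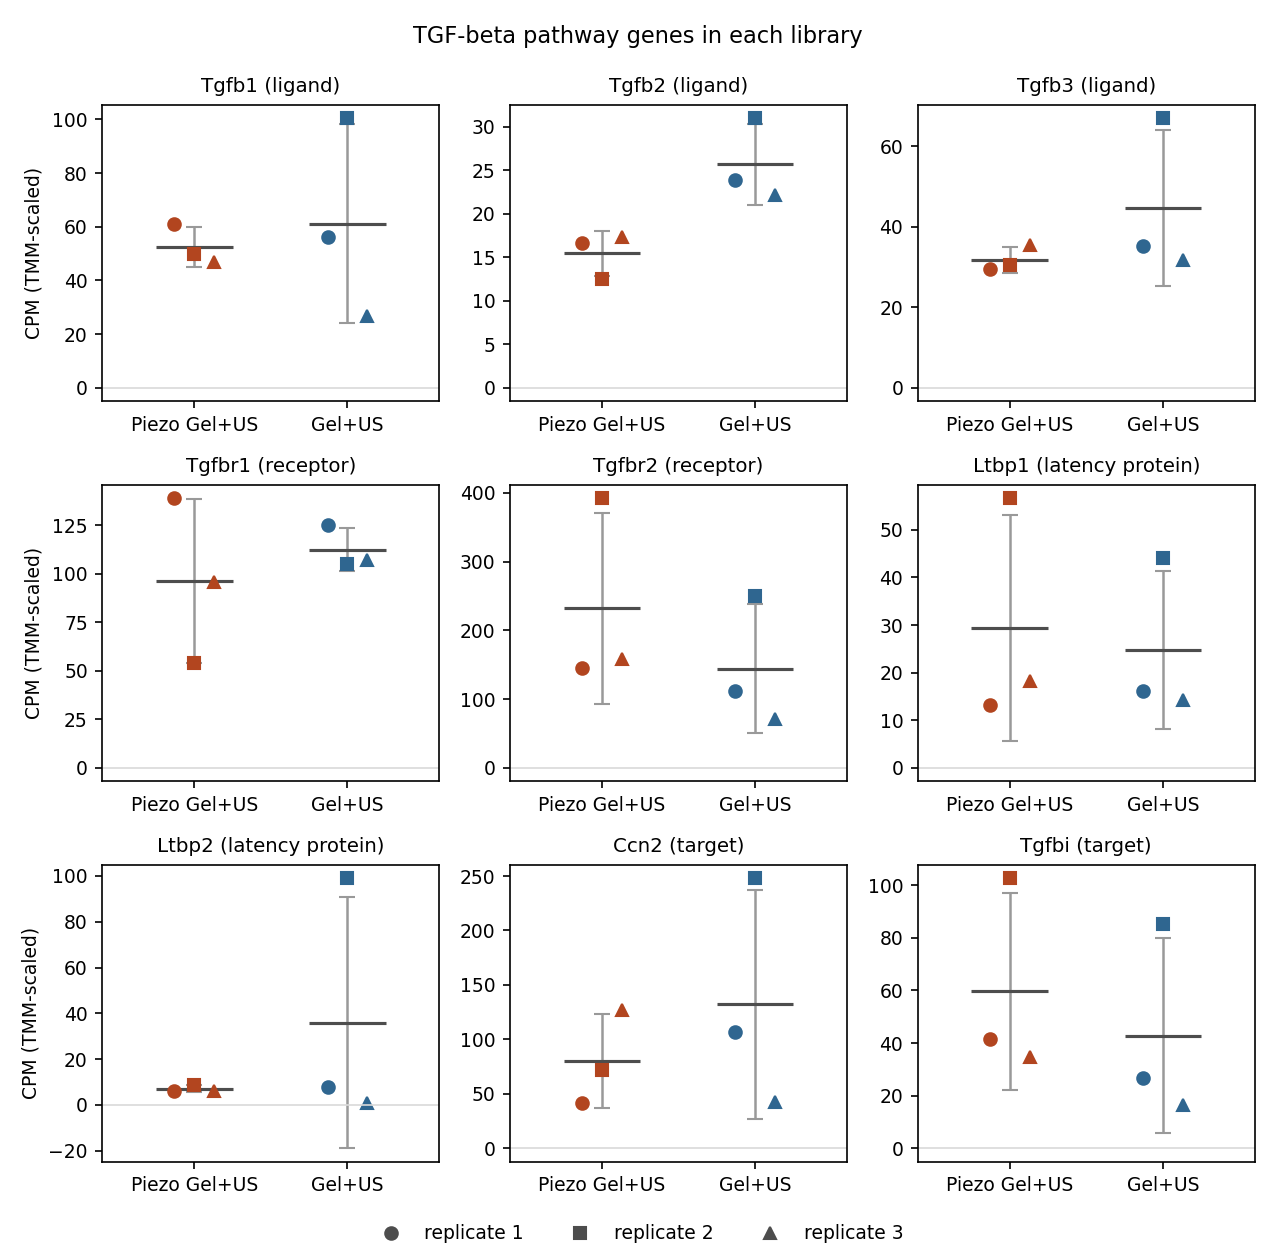
Level of each of the 9 genes in CPM on the scaled library size, Piezo Gel+US on the left and Gel+US on the right, with 1 symbol per library and a bar and whiskers for the mean ± SD of 3 libraries. Tgfb2 is the gene whose groups do not overlap, at 12.5 to 17.3 CPM in Piezo Gel+US and 22.2 to 31.0 CPM in Gel+US, and the squares of replicate 2 stand apart in several other panels.

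The groups did not overlap for 1 of the 9 genes, the ligand Tgfb2. Tgfb2, the ligand best known from embryonic development and from glia and neurons, measured 16.6, 12.5 and 17.3 CPM in Piezo Gel+US and 23.8, 31.0 and 22.2 CPM in Gel+US. Every Piezo Gel+US library lay below every Gel+US library. Such a separation with lower values in Piezo Gel+US was found for 2.73% of all tested genes, and a separation in either direction for 6.81%. The means were 15.5 ± 2.58 and 25.7 ± 4.67 CPM in Piezo Gel+US and Gel+US (SD, n = 3 each), a fold of 0.603. The edgeR log2 fold change was -0.73 (SE 0.22, 95% interval -1.26 to -0.20, adjusted p = 0.994). Its unadjusted p of 0.0143 was the 49th lowest of all genes. Leaving out 1 library gave log2 fold changes between -0.83 and -0.58. Without both libraries numbered 2 it was -0.44, with an unadjusted p of 0.0577, so the size but not the direction moved with those libraries. In the deposited table Tgfb2 lies on the minus strand at 64761730 to 64846738, in a build not given in the sources used here, and 1 uncharacterised locus on the opposite strand overlaps it with 0 counts in total.

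Tgfb1, the ligand most tied to wound healing and immune restraint, measured 61.0, 49.7 and 46.7 CPM in Piezo Gel+US and 56.3, 100.5 and 26.7 CPM in Gel+US. The Gel+US group held both the highest and the lowest library and enclosed all Piezo Gel+US values. Its log2 fold change was -0.22 (95% interval -1.28 to 0.84, adjusted p = 0.994 by edgeR), and without Gel+US replicate 2 it was 0.33. Tgfb3, the remaining ligand, measured 29.5, 30.5 and 35.4 CPM in Piezo Gel+US and 35.2, 67.0 and 31.8 CPM in Gel+US. Its highest value was again Gel+US replicate 2, and the other 5 libraries lay close together. The log2 fold change was -0.49 (95% interval -1.23 to 0.25, adjusted p = 0.994 by edgeR), and without Gel+US replicate 2 it was -0.085.

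Compared per kilobase of gene model, Tgfb1 was the most abundant ligand transcript in every library. Its share of the summed ligand level was 67.1%, 63.9% and 57.7% in Piezo Gel+US and 59.7%, 61.2% and 43.4% in Gel+US. Tgfb2 made up 10.9%, 9.57% and 12.7% in Piezo Gel+US and 15.03%, 11.2% and 21.5% in Gel+US. Tgfb3 made up 21.97%, 26.5% and 29.6% in Piezo Gel+US and 25.3%, 27.6% and 35.1% in Gel+US. All 3 shares overlapped between the groups. The summed ligand level was 40.5, 34.7 and 36.1 CPM per kilobase in Piezo Gel+US and 42.1, 73.3 and 27.4 CPM per kilobase in Gel+US, again with Gel+US on both sides of Piezo Gel+US.

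**Figure D2:**
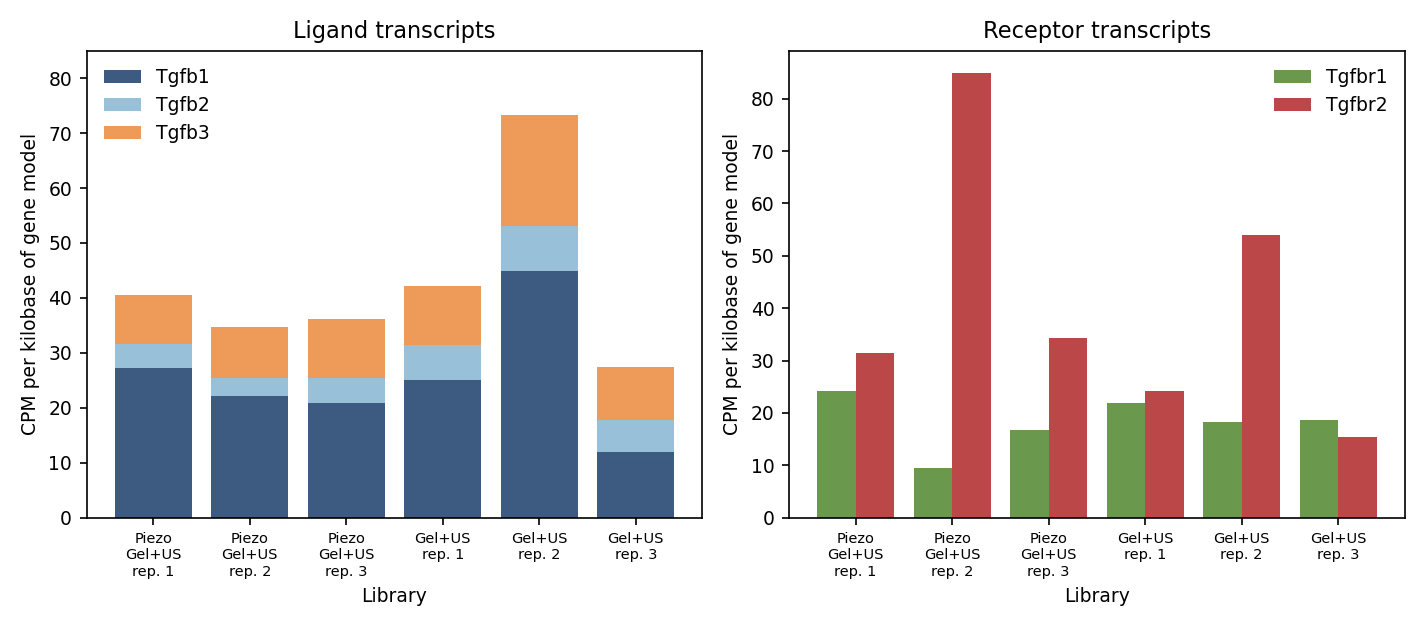
Levels in CPM per kilobase of gene model in each library, Piezo Gel+US on the left and Gel+US on the right of each panel, with the 3 ligands stacked in the first panel and the 2 receptors side by side in the second. Tgfb1 is the largest part of every ligand bar, and Tgfbr2 exceeds Tgfbr1 in every library except Gel+US replicate 3.

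The receptors differed in opposite directions, and both 95% intervals held 0. Tgfbr2, the type II receptor that binds ligand, measured 145, 392 and 158 CPM in Piezo Gel+US and 112, 249.6 and 71.0 CPM in Gel+US. Replicate 2 was the highest library of each group. The means were 232 ± 139 and 144 ± 93.6 CPM in Piezo Gel+US and Gel+US (SD, n = 3 each), with a log2 fold change of 0.69 (95% interval -0.69 to 2.06, adjusted p = 0.994 by edgeR). Tgfbr1, the type I receptor that carries the signal to SMAD2 and SMAD3, measured 139, 54.1 and 96.0 CPM in Piezo Gel+US and 125, 105 and 107 CPM in Gel+US. The Gel+US libraries were close together and Piezo Gel+US replicate 2 was the lowest of the 6. The log2 fold change was -0.22 (95% interval -1.02 to 0.58, adjusted p = 0.994 by edgeR), and 0.057 without Piezo Gel+US replicate 2. Tgfbr2 had 0.064 without that library, and 1.33 when Gel+US replicate 2 was left out.

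The ratio of Tgfbr2 to Tgfbr1, per kilobase, was 1.30, 9.01 and 2.05 in Piezo Gel+US and 1.11, 2.96 and 0.823 in Gel+US. The value of 9.01 came from the library with low Tgfbr1, high Tgfbr2 and the high Schwann cell markers. Macrophage markers summed to 740 CPM and microglial markers to 204 CPM in that library, the lowest values of the 6, where the other libraries had 832 to 1146 and 267 to 433 CPM. Astrocyte and neuronal markers were also lowest there, at 2609 and 1759 CPM. Endothelial and skeletal muscle markers were highest there, at 973 and 97.6 CPM. The part of these markers in the receptor levels was not tested.

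Deviations from the group means were more alike between same-numbered libraries over all genes, though no label says that a number marks a pair. With 3 libraries a group this likeness cannot decide whether the numbers mark pairs. Differences within a number are given for the 3 genes at an unadjusted p below 0.05 in a fit with the replicate number as a block. That choice favours genes with the same sign in all 3 numbers, so agreement of sign is no added support. The remaining genes of the 9 had both signs, and the share of all genes with 1 sign in the 3 numbers was not computed. For Tgfbr2 the log2 difference of Piezo Gel+US minus Gel+US was 0.38, 0.65 and 1.15 for numbers 1, 2 and 3, higher in 3 of 3 (block log2 fold change 0.73, adjusted p = 0.855 by edgeR). For Tgfbi it was 0.64, 0.27 and 1.08, again higher in 3 of 3 (block log2 fold change 0.66, adjusted p = 0.855 by edgeR). For Tgfb2 it was -0.52, -1.30 and -0.36, lower in 3 of 3 (block log2 fold change -0.73, adjusted p = 0.855 by edgeR). The block fit called 0 of all genes, with 986 at an unadjusted p below 0.05 against 359 in the fit on group alone. Without both libraries numbered 2 the log2 fold changes of Tgfbr2 and Tgfbi were 0.73 and 0.83.

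The latency protein Ltbp2 had the widest spread of the 9 genes. Ltbp2, a matrix protein that resembles the other latent TGF-beta binding proteins but is not known to bind latent TGF-beta itself, measured 5.98, 8.75 and 6.31 CPM in Piezo Gel+US and 7.92, 98.97 and 0.852 CPM in Gel+US. The Gel+US value of 98.97 CPM rests on 1782 counts in replicate 2 and the value of 0.852 CPM on 17 counts in replicate 3, whose exact 95% Poisson interval of 9.90 to 27.2 counts covers counting error only. The highest library was 116-fold above the lowest, and both were Gel+US. This gave a log2 fold change of -2.35 (95% interval -5.68 to 0.97, adjusted p = 0.994 by edgeR), and without Gel+US replicate 2 it was 0.67. Ltbp1, which binds the latent complex covalently and anchors it in the matrix, measured 13.3, 56.6 and 18.3 CPM in Piezo Gel+US and 16.2, 44.0 and 14.3 CPM in Gel+US. Each group had 1 high library, replicate 2, and the other 4 libraries lay between 13.3 and 18.3 CPM. Between the groups its log2 fold change was 0.24 (95% interval -1.35 to 1.84, adjusted p = 0.994 by edgeR), against -0.67 when Piezo Gel+US replicate 2 was left out, 0.93 for Gel+US replicate 2 and -0.057 for Gel+US replicate 3. The fibroblast markers were highest in the same 2 libraries as Ltbp1. So were the pericyte and smooth muscle markers and the skeletal muscle markers. The part of these markers in the Ltbp1 level was not tested.

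Both target genes overlapped between the groups. Ccn2 measured 41.5, 72.1 and 126.5 CPM in Piezo Gel+US and 107, 248 and 42.2 CPM in Gel+US. The lowest library of the 6 was Piezo Gel+US replicate 1, with Gel+US replicate 3 next to it. The means were 80.1 ± 43.1 and 132 ± 105 CPM in Piezo Gel+US and Gel+US (SD, n = 3 each). Between the groups its log2 fold change was -0.72 (95% interval -2.33 to 0.88, adjusted p = 0.994 by edgeR), and it was 0.097 without Gel+US replicate 2. Tgfbi measured 41.7, 102.7 and 34.6 CPM in Piezo Gel+US and 26.7, 85.1 and 16.3 CPM in Gel+US, highest in replicate 2 of each group. The log2 fold change was 0.48 (95% interval -1.17 to 2.13, adjusted p = 0.994 by edgeR), and 1.46 when Gel+US replicate 2 was left out but -0.17 when Piezo Gel+US replicate 2 was. The ratio of Tgfbi to Ccn2, per kilobase, was 0.857, 1.22 and 0.233 in Piezo Gel+US and 0.214, 0.293 and 0.329 in Gel+US. Piezo Gel+US replicates 1 and 2 lay above every Gel+US library, and Piezo Gel+US replicate 3 lay above only 1 of them.

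**Figure D3:**
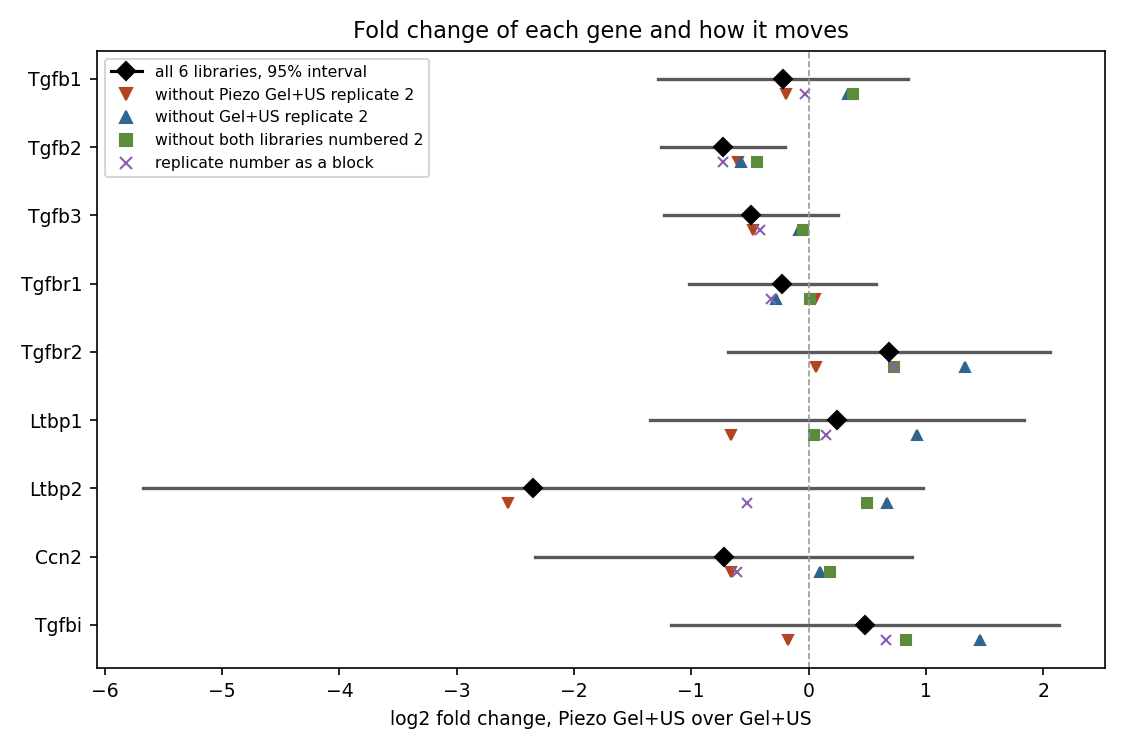
Log2 fold change of Piezo Gel+US over Gel+US for each gene on all 6 libraries with its 95% interval (diamonds), and, below each, the value without either or both of the libraries numbered 2 and with the replicate number as a block. The interval of Tgfb2, -1.26 to -0.20, is the one that does not reach 0, and the 4 added values of Tgfb2 stay below 0, while those of Ltbp2 run from below -2 to above 0.

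Per kilobase the mean levels of the 9 genes ran from 50.2 ± 30.1 for Tgfbr2 and 34.1 ± 18.3 for Ccn2 down to 4.11 ± 0.685 for Tgfb2 and 1.07 ± 0.231 CPM per kilobase for Ltbp2 in Piezo Gel+US (SD, n = 3). In Gel+US they ran from 56.4 ± 44.8 for Ccn2 and 31.2 ± 20.3 for Tgfbr2 down to 5.46 ± 8.33 for Ltbp2 and 4.99 ± 3.34 CPM per kilobase for Ltbp1 (SD, n = 3). Neighbours in these orders had overlapping mean ± SD ranges, with the exception of Tgfb2 and Ltbp2 in Piezo Gel+US. Tgfb1, at 23.4 ± 3.36 in Piezo Gel+US and 27.3 ± 16.6 CPM per kilobase in Gel+US, followed Tgfbr2 and Ccn2 in both orders.

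Across the 6 libraries the genes formed patterns that did not follow their roles. Pearson correlations of log2 CPM are descriptions over 6 libraries that share their depth and tissue makeup. Tgfbr2 and Tgfbi had r = 0.979, Tgfbr2 and Ltbp1 r = 0.892, and Ltbp1 and Tgfbi r = 0.884. These 3 genes were highest in the libraries numbered 2, as were the fibroblast, the pericyte and smooth muscle, and the skeletal muscle markers. Oligodendrocyte, astrocyte and neuronal markers were lowest in the same libraries. The likeness is thus not particular to 1 cell type. The fibroblast markers also share genes with the pathway lists, so it cannot be read as one to a cell type apart from the pathway. Tgfb1 and Ltbp2 had r = 0.958 and Tgfb3 and Ccn2 r = 0.860, and all 4 were highest in Gel+US replicate 2. Tgfbr1 ran against Ltbp1 (r = -0.784) and Tgfbr2 (r = -0.705).

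**Figure D4:**
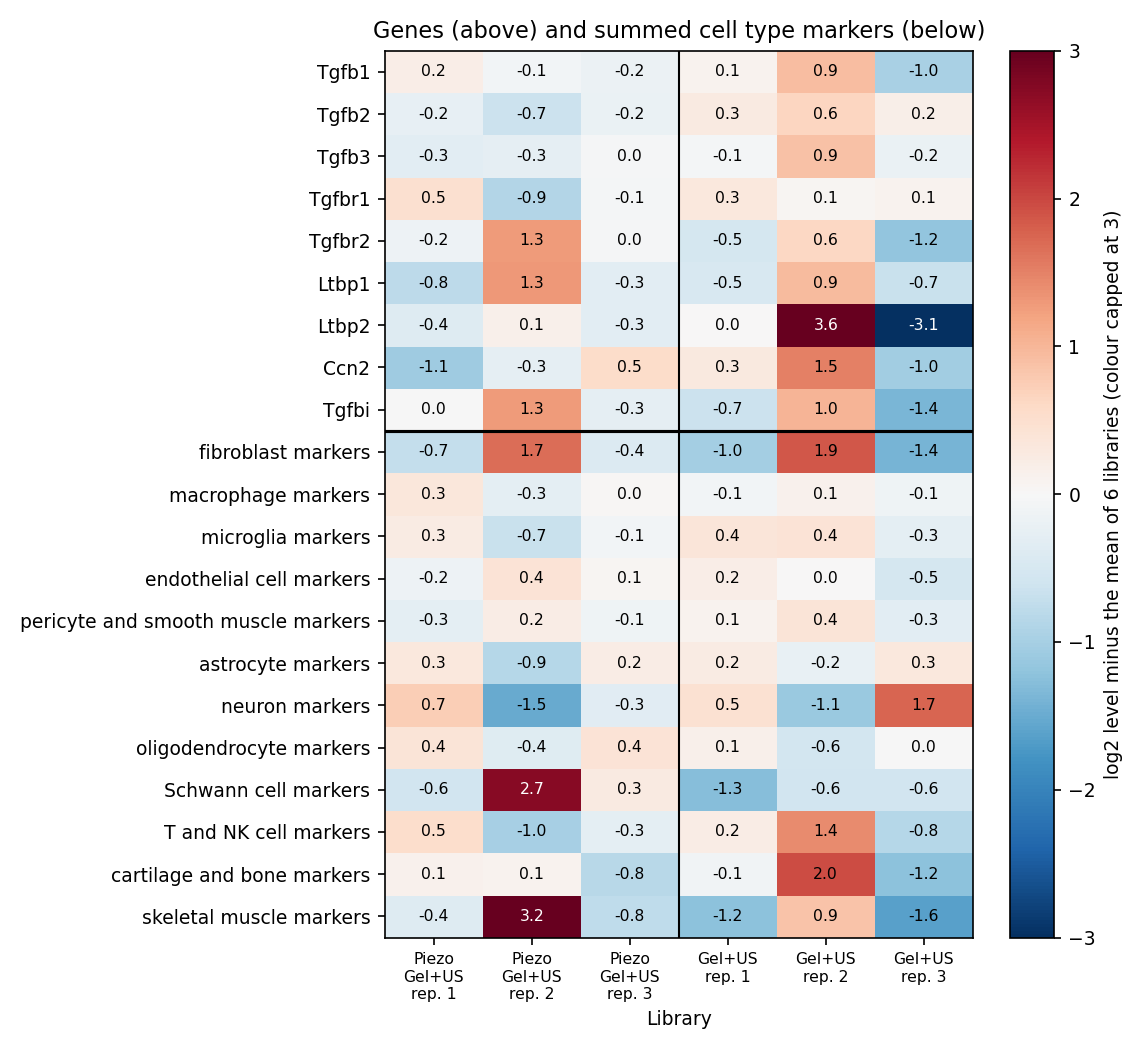
Log2 level of each of the 9 genes (above the line) and of the summed markers of 12 cell types (below it) in each library, Piezo Gel+US to the left of the vertical line and Gel+US to the right, as the difference from the mean of the 6 libraries. Red is above and blue below that mean. Tgfbr2, Ltbp1 and Tgfbi are red in the same libraries as the fibroblast markers, replicate 2 of each group. The pericyte and smooth muscle markers and the skeletal muscle markers are also highest in those libraries. Ltbp2 is highest in Gel+US replicate 2. The cartilage and bone, fibroblast, T and NK cell, microglia, and pericyte and smooth muscle markers are also highest in that library.

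The genes whose pattern was most like each of the 9 were taken from 15171 tested genes by Pearson r of log2 CPM over the 6 libraries. For the ligands these were Plxnb2 and Ets1 for Tgfb1 (r = 0.997 and 0.994), Cfap70 for Tgfb2 (r = 0.989) and Zbtb5 and Gnptg for Tgfb3 (r = 0.986 and 0.983). For the receptors they were Kiaa1549 and P2ry13 for Tgfbr1 (r = 0.993 and 0.989) and Cuedc2 and Rarg for Tgfbr2 (r = 0.9996 and 0.998). Islr and Sfrp1 were closest to Ltbp1 (r = 0.996 and 0.995) and Cspp1 and Hscb to Ltbp2 (both r = 0.998). Atp8b1 and Fzd6 were closest to Ccn2 (r = 0.991 and 0.979), and Ssr4 and an unnamed locus to Tgfbi (both r = 0.997). With 6 libraries such values are common: an r above 0.95 was reached by 451 genes with Tgfbr2 and 333 with Tgfbi, but by 23 with Tgfb2, 21 with Tgfb3 and 14 with Ccn2.

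Around the 9 genes, 102 other genes of the pathway were listed in 7 groups by role, of which 99 were in the table and 95 were tested. By edgeR and by DESeq2 0 were called, with 2 at an unadjusted p below 0.05 by edgeR (Smurf1 and Cnn1) and 5 by DESeq2. With edgeR that number was 1 without Piezo Gel+US replicate 2 or replicate 3, 7 without Gel+US replicate 3, 6 with the replicate number as a block and 9 without both libraries numbered 2. Over all genes it was 359 of 17066 by edgeR and 652 of 23195 by DESeq2. With edgeR it was 204 of 17419 without Piezo Gel+US replicate 2, and 364 of 17496 without Piezo Gel+US replicate 3. It was 317 of 17424 without Gel+US replicate 3, 986 of 17066 with the block and 910 of 17132 without both libraries numbered 2. Groups did not overlap for 7 of the 95, next to 6.81% of all genes. Of the 28 target genes tested, 22 were lower and 6 higher (median log2 fold change -0.16, against -0.021 for all genes), and 20 of the 28 were highest in Gel+US replicate 2. Without that library 7 were lower and 21 higher, with a median of 0.48, and without both libraries numbered 2 there were 10 lower and 18 higher (median 0.11). Among them Cnn1, a smooth muscle calponin, measured 4.70, 4.02 and 5.23 CPM in Piezo Gel+US and 5.46, 22.7 and 8.02 CPM in Gel+US, a log2 fold change of -1.37 (95% interval -2.67 to -0.074). Its groups did not overlap, and without Gel+US replicate 2 the log2 fold change was -0.55. Tsc22d1, a transcription regulator first found as induced by TGF-beta, measured 414, 464 and 443 CPM in Piezo Gel+US and 508, 533 and 541 CPM in Gel+US, a log2 fold change of -0.26 (95% interval -0.69 to 0.17). Id2, an inhibitor of helix-loop-helix factors, had a log2 fold change of -0.45 (95% interval -1.28 to 0.39), and -0.0017 without Gel+US replicate 2.

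In the group of intracellular signal and feedback genes 9 of 16 were higher and 7 lower (median 0.048). Without Piezo Gel+US replicate 2 there were 5 higher and 11 lower (median -0.073), and leaving out Gel+US replicate 2 gave 11 higher and 5 lower (median 0.22). Smurf1, a ubiquitin ligase that marks receptors and SMADs for degradation, measured 93.9, 205 and 103 CPM in Piezo Gel+US and 68.7, 88.4 and 58.6 CPM in Gel+US. Every Piezo Gel+US library lay above every Gel+US library. Smurf1 had a log2 fold change of 0.90 (95% interval 0.073 to 1.72, unadjusted p = 0.0370 and adjusted p = 0.994 by edgeR), 0.44 without Piezo Gel+US replicate 2 and 0.63 without both libraries numbered 2. Pmepa1, a target that damps SMAD signalling, was also separated, at 35.4, 35.6 and 34.9 CPM in Piezo Gel+US and 50.5, 41.5 and 43.0 CPM in Gel+US, a log2 fold change of -0.35 (95% interval -0.72 to 0.022). Groups did not overlap for 4 of these 16 genes, Smurf1 and Pmepa1 among them, and for 6.81% of all genes tested. Smad3, the signal carrier itself, had a log2 fold change of 0.61 (95% interval -0.13 to 1.34), and 0.22 without Piezo Gel+US replicate 2. It was higher in Piezo Gel+US within each of the 3 replicate numbers, with 0.40 when both libraries numbered 2 were left out and 0.56 in the block fit (adjusted p = 0.855 by edgeR). Smad3 was named for a low p in these data, so this agreement of sign is no added support.

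Among genes of latency, storage and activation 7 of 13 were higher and 6 lower (median 0.041), and scaling by library totals gave 5 higher and 8 lower. Leaving out Gel+US replicate 2 gave 11 higher and 2 lower (median 0.54), and leaving out Piezo Gel+US replicate 2 gave 3 higher and 10 lower (median -0.30). Thbs1, the activator thrombospondin, measured 64.9, 30.1 and 33.3 CPM in Piezo Gel+US and 118, 434 and 5.56 CPM in Gel+US. Gel+US again held both extremes, and the log2 fold change of -2.12 (95% interval -5.04 to 0.80) was -0.52 without Gel+US replicate 2. Mmp14, a membrane protease that can release latent ligand, measured 56.1, 274 and 66.2 CPM in Piezo Gel+US and 44.3, 120 and 33.0 CPM in Gel+US, a log2 fold change of 1.01 (95% interval -0.80 to 2.81), and was -0.11 without Piezo Gel+US replicate 2. Within each of the 3 replicate numbers Mmp14 was higher in Piezo Gel+US, with 0.66 when both libraries numbered 2 were left out and 0.85 in the block fit (adjusted p = 0.855 by edgeR). Itgav, the integrin subunit shared by the activating receptors, had a log2 fold change of 0.14 (95% interval -0.33 to 0.60), with 0.0049 when Piezo Gel+US replicate 1 was left out and 0.018 when Gel+US replicate 2 was. Of the secreted binders and antagonists 8 of 11 were lower and 3 higher (median -0.48), and without Gel+US replicate 2 there were 2 lower and 9 higher (median 0.68). Aspn, a small proteoglycan that binds TGF-beta, had a log2 fold change of -1.47 with 46.2 CPM in Gel+US replicate 2, and -0.32 without it. Fstl3, which binds activin, had 1.40, and 0.49 without Piezo Gel+US replicate 2. Fstl3 was likewise higher in Piezo Gel+US within each of the 3 replicate numbers, with 0.88 when both libraries numbered 2 were left out and 1.18 in the block fit (adjusted p = 0.855 by edgeR). Among the other pathway genes named, Aspn, Cnn1, Pmepa1, Tsc22d1, Inhba and Bmpr2 were lower in Piezo Gel+US within each of the 3 numbers. For Aspn, Cnn1, Pmepa1 and Tsc22d1 the groups did not overlap, which fixes that sign in advance. All these genes, Mmp14 and Fstl3 included, were named for a low p in these data. That choice favours the same sign in all 3 numbers, so agreement of sign is no added support. The share of all genes with the same sign in the 3 numbers was not computed. Nog, a BMP antagonist, had -0.82, against -0.46 without Gel+US replicate 2 and -0.33 without both libraries numbered 2.

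**Figure D5:**
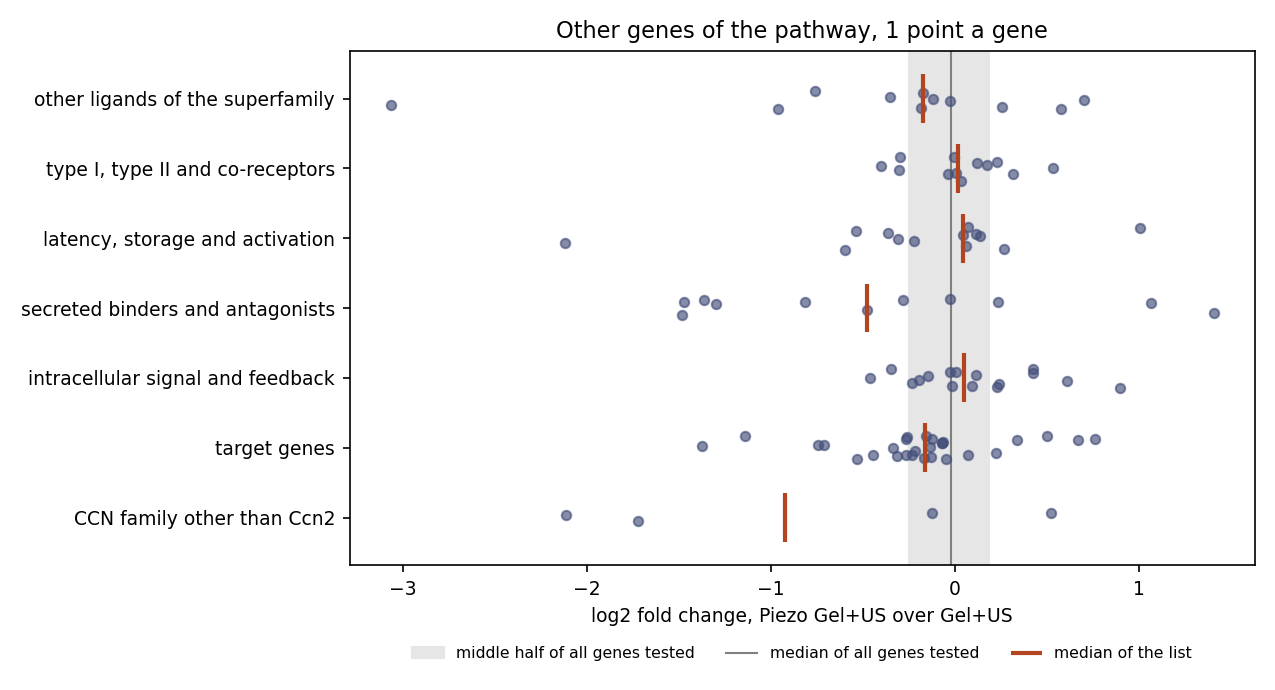
Log2 fold change of Piezo Gel+US over Gel+US for the 95 other pathway genes tested, 1 point a gene, by role, with the median of each role (thick bars) and, for all genes tested, the median (line) and the range between the quartiles, -0.25 to 0.19 (band). The medians lie between -0.48 and 0.048 except for the CCN family, at -0.93 over 4 genes.

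Of the other ligands of the superfamily 8 of 11 were lower and 3 higher (median -0.18), and without Gel+US replicate 2 there were 3 lower and 8 higher (median 0.26). Gdf10, a growth factor of the superfamily, measured 74.4 CPM in Gel+US replicate 2 and 0.776 to 5.82 CPM in the other 5 libraries, so its log2 fold change of -3.07 became 0.89 without that library. Inhba, the activin subunit, and Bmp4 had log2 fold changes of -0.96 and -0.76, and Bmp4 had 0.14 without Gel+US replicate 2 while Inhba had -0.57. Of the other receptors 7 of 12 were higher and 5 lower (median 0.018), and scaling by library totals gave 5 higher and 7 lower. Leaving out Piezo Gel+US replicate 2 gave 4 higher and 8 lower (median -0.12), and leaving out Gel+US replicate 2 gave a median of 0.13. The receptor of lowest p was the co-receptor Tgfbr3, with a log2 fold change of 0.53 (0.13 without Piezo Gel+US replicate 2), with Bmpr2 at -0.30 and Bmpr1b at -0.41 (-0.16 and -0.034 without that library). In the CCN family 3 of 4 were lower (median -0.93), and 4 of 4 were higher without Gel+US replicate 2 (median 0.62). Ccn3 measured 327 CPM and Ccn5 96.7 CPM in Gel+US replicate 2, against at most 59.4 and 14.0 CPM in the other libraries, with log2 fold changes of -1.73 and -2.12 that became 0.25 and 0.36 without it. Ccn4 had a log2 fold change of 0.52, with -0.54 when Piezo Gel+US replicate 2 was left out and 1.11 when Gel+US replicate 2 was.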

How the data were processed

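Polyadenylated RNA from 6 libraries was sequenced as strand-marked cDNA per the labels' protocols, and each library was placed in its group by its treatment label. The authors deposited raw counts per gene. Per the submitters' processing notes the tools named were DESeq2 1.20.0, featureCounts 1.5.0-p3, HISAT2 2.0.5 and fastp 0.19.7, with no roles stated, and the genome build and the use of strand in counting are not given in the sources used here. None of the table's gene identifiers occurred in RefSeq GRCr8 (0 matches), so genes were matched by name. The table's sequence names look like those of the black rat reference, not of the Norway rat named in the labels, and the effect on the counts was not tested. All 9 genes had a RefSeq promoter. The 1355 rows with an identifier but no gene name, holding 0.938% to 1.07% of counts per library, stayed in the fit.

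The comparison used edgeR 4.0.16 under R 4.3.3 (TMM factors, minimum count 10, minimum total count 15, robust quasi-likelihood F test, group as the only term), with Benjamini-Hochberg adjustment over all tested genes. Log2 fold changes are Piezo Gel+US over Gel+US. CPM uses the TMM-scaled library size. Correlations use log2 CPM with a prior count of 2. The edgeR fit was tested on simulated counts with known changes. Those counts varied less between libraries than the real ones, so that test does not measure the power in these data. Alternatives were RLE factors, library totals, no filter, DESeq2 1.42.0, the replicate number as a block, each library left out and, chosen after seeing the data, both libraries numbered 2 left out. Named besides the 9 genes were the 3 genes of lowest p in each of 7 pathway lists and, for each of the 9, the 2 tested genes most like it, of which 1 is not reported here. The genes, lists and tests were chosen with earlier results of these data known.

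Deviations from the group means correlated between same-numbered libraries at 0.253, 0.296 and 0.251 for numbers 1, 2 and 3, all above 0.1, and at 0.198 at most between different numbers. The value of 0.198 also lay above 0.1. With 3 libraries a group few matchings of the numbers exist, so these correlations cannot decide whether a number marks a pair. No label states what a number marks. The replicate block and the differences within a number are therefore given only as alternatives to the fit on group alone.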

Additional observations from a re-analysis of the deposited data

How the results depend on the processing

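The edgeR test called 0 of the 9 genes, 0 of the 95 other pathway genes and 0 genes in all under every alternative run, and the smallest adjusted p of any of the 9 was 0.744. Of 108 fold changes under alternatives, 97 kept their sign and 11 did not. With the libraries numbered 2 left out together, the log2 fold changes that changed sign were 0.38 for Tgfb1, 0.016 for Tgfbr1, 0.50 for Ltbp2 and 0.18 for Ccn2. Leaving out 1 library gave -0.59 to 0.33 for Tgfb1, -0.60 to 0.057 for Tgfbr1, -0.67 to 0.93 for Ltbp1, -2.95 to 0.67 for Ltbp2, -1.22 to 0.097 for Ccn2 and -0.17 to 1.46 for Tgfbi, and with no sign change -0.83 to -0.58 for Tgfb2, -0.70 to -0.085 for Tgfb3 and 0.064 to 1.33 for Tgfbr2. The cause was not tested beyond the library left out. Genes at an unadjusted p below 0.05 numbered 359 in the fit on group alone, 652 with DESeq2, 496 with no filter, 986 with the replicate block, 910 without both libraries numbered 2 and 141 to 775 with 1 library left out. Of the 9 genes the number at that level was 1 in the fit on group alone, 3 with the replicate block, which changed no call, 3 without Gel+US replicate 2, 2 without Gel+US replicate 3 and 2 without both libraries numbered 2. Scaling by RLE factors or library totals changed no sign among the 9 genes. The Ltbp2 level in Gel+US replicate 3 rested on 17 counts in a library of 20198203 counts and was imprecise.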
